A study of Rattus norvegicus with 6 samples.

Results

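CpG sites of intermediate methylation were taken from the 2 reduced representation bisulfite sequencing (RRBS) libraries of a rat hippocampus study. RRBS cuts DNA at CCGG and reads, at each cytosine of the fragments obtained, how many reads kept it as C (methylated) or show it converted (unmethylated). The methylation level of a site is the methylated share of its reads in percent. A member was a CpG cytosine outside the mitochondrial genome with 20 or more reads in both libraries, a level of 20% to under 80% over the reads of both libraries together (the pooled level), and a difference between the libraries of under 70 percentage points. This rule gave 113860 members, 11.4% of the 1002048 CpG sites with 20 or more reads in both libraries, out of 1214971 CpG sites found in both. Of the other sites, 718656 (71.7%) had a pooled level under 20% and 169353 (16.9%) a pooled level of 80% or more, while 179 were left out for a difference of 70 points or more. The members were thus chosen by their levels and library differences, which are given as a description without a test.

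The B[a]P library was labelled as Sprague-Dawley hippocampus with B[a]P as the agent, and the control library as Sprague-Dawley hippocampus with the corn oil vehicle as the agent. B[a]P is benzo[a]pyrene, a hydrocarbon of fused aromatic rings found in combustion smoke and charred food. The protocol printed with the RNA-seq labels puts the daily oral dose at 2.0 mg/kg in corn oil and the gavage at 7 weeks, while the age of every sample is labelled as 7 weeks; the RRBS labels name the agent without the dose. There was 1 library per group for each of 3 assays, and the labels do not say whether a library pooled animals or whether the assays shared an animal. Without replicates, a difference between the libraries has no check against the spread between animals. The Wilson 95% intervals given below cover counting error only. Those over several sites count a read once at each site it covers, so they are narrower than the reads allow.

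The B[a]P library listed 1440969 CpG sites with a median of 47 reads, and the control library 1250635 with a median of 72, none below the 10 reads from which the tables start. In RNA-seq, the 7 hippocampal neuron markers lay between 7.55 and 54.7 FPKM (an RNA level scaled for gene length and depth, a unit inferred from the values) with B[a]P and between 8.15 and 57.4 FPKM in the control. The choroid plexus markers did not match: Ttr had 60.5 FPKM with B[a]P against 3300.2 FPKM in the control, Folr1 1.02 FPKM with B[a]P against 24.8 FPKM in the control, and Kl 0.724 FPKM with B[a]P against 23.1 FPKM in the control. The part of such a difference in cell content in the RRBS levels was not tested.

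In mammalian DNA, most CpG sites outside CpG islands carry 5-methylcytosine on nearly all copies, and CpG islands at active gene starts carry almost none. Maintenance methylation copies the mark from the old to the new DNA strand, so the strands of a CpG tend to share their state. Levels in between are known from imprinted regions, where the copy from a single parent is methylated, from sequences that differ between cell types, and from sequences with variable methylation. A level from mixed tissue counts reads and cannot tell these apart.

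The promoters below show where members fell around 5 gene starts with only intermediate sites and around the start of a gamma protocadherin. They were read from RefSeq (assembly GRCr8), 250 bases before to 50 bases after the gene start, and placed on the deposited cytosines by the pattern of their cytosine contexts, as no genome of the files' build was used here. These genes, and those named below for their promoters, were chosen after their values were seen. A capital C is a member on the printed strand and a capital G a member on the opposite strand.
The imprinted genes Plagl1 (chr1:9297214-9297513, plus strand) and Peg10 (chr4:33808776-33809075, plus strand) are shown for members next to the gene start. The Plagl1 window has 29 CpG but 8 measured sites, and the Peg10 window 22 CpG but 6 measured sites. All measured sites are members, so the levels further upstream are not known.
Plagl1: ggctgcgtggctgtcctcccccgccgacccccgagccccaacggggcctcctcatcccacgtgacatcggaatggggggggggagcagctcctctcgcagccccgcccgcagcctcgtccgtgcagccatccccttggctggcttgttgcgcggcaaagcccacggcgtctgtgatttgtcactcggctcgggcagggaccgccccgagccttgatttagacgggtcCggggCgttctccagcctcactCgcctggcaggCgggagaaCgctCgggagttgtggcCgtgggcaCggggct
Peg10: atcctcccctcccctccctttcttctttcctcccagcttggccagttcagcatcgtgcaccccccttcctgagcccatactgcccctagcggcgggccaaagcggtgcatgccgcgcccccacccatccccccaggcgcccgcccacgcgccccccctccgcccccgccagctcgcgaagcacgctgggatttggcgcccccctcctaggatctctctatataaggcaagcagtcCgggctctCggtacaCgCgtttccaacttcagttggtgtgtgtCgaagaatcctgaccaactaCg
The desmosomal cadherin gene Dsc3 (chr18:11688822-11689121, minus strand), the germline gene Piwil1 (chr12:33606534-33606833, minus strand) and the endothelial gene Plvap (chr16:18231230-18231529, minus strand) are shown for promoters with lower levels in the B[a]P library. The last of the 10 Plvap members lies at the final base, whose CpG ends outside the window, and is in lower case.
Dsc3: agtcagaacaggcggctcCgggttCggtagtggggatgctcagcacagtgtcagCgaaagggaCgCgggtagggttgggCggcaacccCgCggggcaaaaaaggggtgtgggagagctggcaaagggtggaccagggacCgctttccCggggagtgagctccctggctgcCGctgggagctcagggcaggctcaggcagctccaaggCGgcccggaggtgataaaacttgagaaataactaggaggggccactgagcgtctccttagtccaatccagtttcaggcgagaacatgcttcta
Piwil1: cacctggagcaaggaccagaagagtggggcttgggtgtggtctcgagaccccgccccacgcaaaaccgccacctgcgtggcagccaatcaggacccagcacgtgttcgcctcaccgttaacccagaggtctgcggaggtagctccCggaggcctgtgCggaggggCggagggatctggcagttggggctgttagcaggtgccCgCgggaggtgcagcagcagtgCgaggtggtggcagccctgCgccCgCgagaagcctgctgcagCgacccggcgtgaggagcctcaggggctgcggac
Plvap: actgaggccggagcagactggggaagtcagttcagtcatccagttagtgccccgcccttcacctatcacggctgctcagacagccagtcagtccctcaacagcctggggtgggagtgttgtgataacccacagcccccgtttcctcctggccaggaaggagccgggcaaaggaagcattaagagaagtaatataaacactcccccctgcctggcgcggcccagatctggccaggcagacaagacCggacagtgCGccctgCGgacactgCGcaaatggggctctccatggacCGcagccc
Pcdhga8 (chr18:29804863-29805162, plus strand) is shown for a promoter with higher levels in the B[a]P library.
Pcdhga8: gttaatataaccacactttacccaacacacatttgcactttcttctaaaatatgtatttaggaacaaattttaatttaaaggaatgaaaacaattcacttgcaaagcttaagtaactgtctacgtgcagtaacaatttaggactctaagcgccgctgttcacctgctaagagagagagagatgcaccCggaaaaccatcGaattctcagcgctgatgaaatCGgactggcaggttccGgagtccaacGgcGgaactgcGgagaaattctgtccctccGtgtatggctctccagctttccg

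Across the band, members leaned to its upper side. There were 17144 members with a pooled level of 20% to under 30%, 15143 at 30% to under 40%, 14923 at 40% to under 50%, 17013 at 50% to under 60%, 20742 at 60% to under 70% and 28895 at 70% to under 80%. The distribution had no separate peak near 50%. The median level of the members was 56.9% in the B[a]P library and 54.5% in the control library. Both libraries lay within the band at 94388 members (82.9%). The rest lay inside it in a single library, with 7538 at 80% or more in the B[a]P library alone, 5386 at 80% or more in the control library alone, 4019 under 20% in the control library alone and 2527 under 20% in the B[a]P library alone, apart from 2 members that were under 20% in the B[a]P library and at 80% or more in the control library. The edges cut through a continuum: 2012 sites lay in the first point from 20% and 1667 in the point under it, and 3288 in the last point under 80% and 4139 in the point from it.

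**Figure D1:**
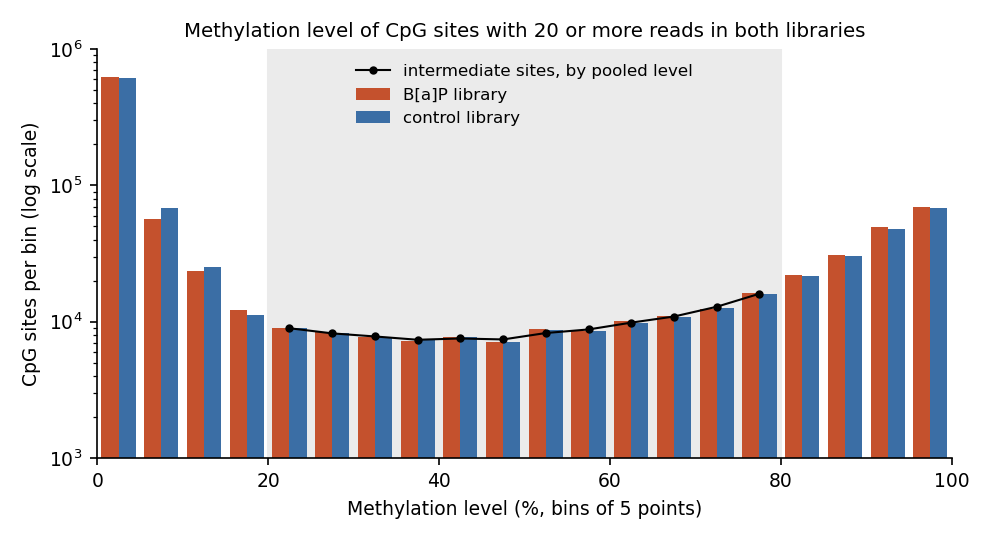
Number of CpG sites (log scale) per 5-point bin of methylation level in the B[a]P library and the control library, with the members by pooled level as black points and the 20% to 80% band in grey. Both libraries have their highest bin at 0 to 5%, a second mode at 95 to 100%, and a shallow floor between, on which the members lie.

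The members were slightly more methylated in the B[a]P library. The difference, B[a]P minus control, had a median of 2.14 points and a standard deviation over sites of 11.2 points. The B[a]P level was higher at 59.1% of members and lower at 40.6%. The median difference was 0 at sites under 20% and 0.0531 points at sites of 80% or more. Those classes lie near the ends of the scale, where a difference in points has less room. Of the sites under 20%, 38.6% had the same level in both libraries. Within the band, the median difference was 2.41 points at pooled levels of 20% to under 30%, reached 2.84 points at 40% to under 50% and was 1.28 points at 70% to under 80%. It was above 0 on all 21 chromosomes, from 0.289 points on the X chromosome to 2.76 points on chromosome 2. Since each library is 1 preparation, its own shift cannot be told apart from the treatment.

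Differences of 25 points or more were counted as a rule of size. Of the members, 2444 (2.15%) were 25 points or more higher in the B[a]P library, where 0.286% of all 1002048 sites were, and 1535 (1.35%) were 25 points or more lower, where 0.187% of all sites were; in either direction it was 3.49% of members and 0.473% of all sites. The rule that chose the members used this contrast, so nothing is read from the gap. Sites under 20% gave 182 higher and 127 lower ones, and sites of 80% or more 148 higher and 121 lower ones.

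Most of the large differences were at low depth: 1705 of the higher and 893 of the lower members had under 40 reads in the shallower library. With a minimum of 50 reads in both libraries 490 members were higher and 527 lower, and without a cluster of sites on chromosome 1, described below with its windows, 490 were higher and 380 lower. Counting of reads alone gives a difference a standard deviation that follows from the level and the read numbers, and a site at 50% has a Wilson interval of 29.9% to 70.1% at 20 reads and of 40.4% to 59.6% at 100 reads. For the 47635 members with 20 to under 40 reads in the shallower library, the root mean square difference was 13.1 points, against 11.1 points from counting. For the 20683 members with 80 to under 160 reads it was 9.23 points against 5.94, and for the 763 members with 320 reads or more it was 12.2 points against 2.87. The variance of the difference was thus 1.38 times that of counting in the shallowest group and 18.01 times in the deepest, and 1.58 times over all members. Without that cluster, 657 of the deepest members were left, with a root mean square difference of 7.62 points and a variance ratio of 6.48, and the ratio over all members was 1.55. Of the 18707 members with 100 or more reads in both libraries, 15703 (83.9%) lay within 10 points, 141 were 25 points or more higher in the B[a]P library and 253 were 25 points or more lower.

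**Figure D2:**
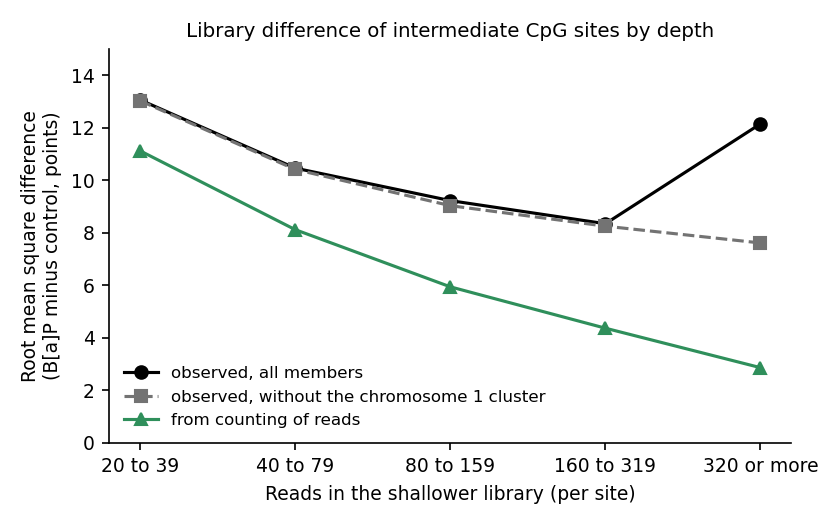
Root mean square of the difference between the libraries, B[a]P minus control, in points, against the reads of the site in its shallower library, for all members (black) and without the chromosome 1 cluster (grey), with the standard deviation that counting of reads gives (green). The observed difference lies above the counting line in every group, and at 320 reads or more it is 12.2 points with the cluster and 7.62 points without it.

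The strands of a CpG shared the intermediate state. The cytosine on the other strand had 20 or more reads in both libraries for 33463 members (29.4%), and this partner was a member in 85.2%, at 80% or more in 9.49% and under 20% in 5.33%. The median gap between the pooled levels of the strands was 5.93 points. Over the 14250 CpG pairs with both strands intermediate, the pooled levels had a Pearson r of 0.867, as a description across sites of the same libraries, whose range the band limits. The difference between the libraries had an r of 0.267 over these pairs and of 0.562 over the 1278 pairs with 80 or more reads at each site. Of the 703 members 25 points or more higher in the B[a]P library that had a partner, 520 (74.0%) had a partner that was higher, 152 of them by 25 points or more. Of the 518 members 25 points or more lower, 381 (73.6%) had a lower partner, 162 of them by 25 points or more.

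Neighbouring CpG sites were mostly intermediate too. Another CpG was measured 2 to 100 bp away for 106061 members, and the nearest was a member for 74.3% of these, at 80% or more for 17.9% and under 20% for 7.79%. Around sites under 20%, the nearest other CpG was intermediate at 1.16%, and around sites of 80% or more at 10.95%. Of the 60988 members with a measured neighbour on both sides, 62.0% had intermediate sites on both. Only 166 (0.272%) lay on a step with a site under 20% on one side and a site of 80% or more on the other, while 8.87% stood between 2 sites of 80% or more and 3.99% between 2 sites under 20%. Members had a median of 4 other measured sites within 100 bp, as had sites of 80% or more, against 25 for sites under 20%.

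**Figure D3:**
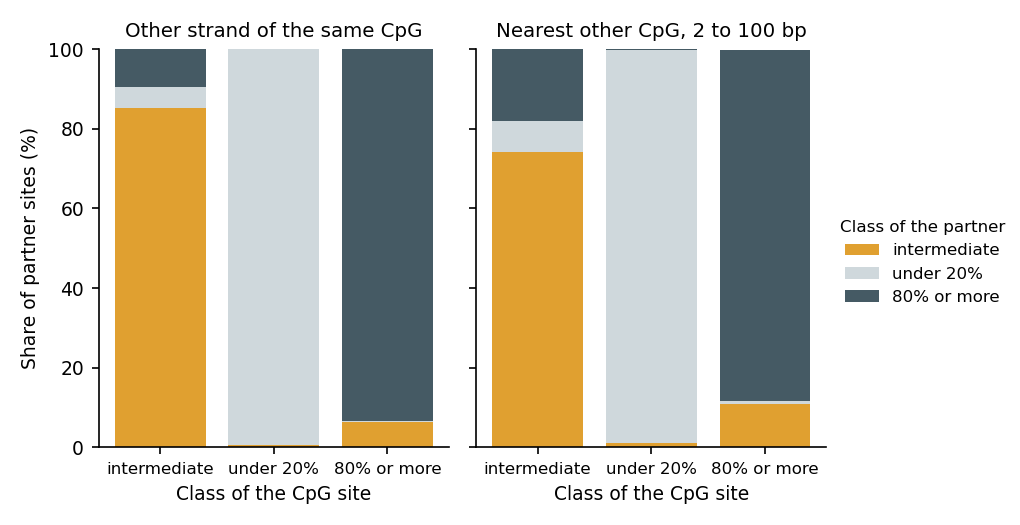
Share (%) of partner sites that are intermediate, under 20% or at 80% or more, for CpG sites of each class, with the other strand of the same CpG on the left and the nearest other CpG at 2 to 100 bp on the right. Where a partner was measured, intermediate sites pair with intermediate sites at 85.2% across strands and 74.3% along the DNA.

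Most members stood alone or in short runs, and a minority formed long ones. With gaps of up to 100 bp, the members formed 50139 runs of neighbouring intermediate sites, of which 26365 held a single member and 930 held 10 or more. The single members were 23.2% of all members, and runs of 10 or more held 13476 members (11.8%). Positions of sites, runs and windows are given as rn5, as the files print them. The longest run spanned 718 bp at chr14:91913735-91914452 and held 150 members. In windows of 1000 bp, 767 of the 22037 windows with 10 or more sites were dense, meaning that 90% or more of their sites were members. In 309 of the dense windows both libraries had 40% to under 60% of their reads methylated. The B[a]P level was higher in 509 of the dense windows (66.4%), 10 points or more higher in 81 and 10 points or more lower in 33. Members chose these windows and the share over all windows is not given, so nothing is read from these counts.

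The window with the most members, chr14:91914006-91914984, had 117 members among 130 sites, with 56.0% of 11311 reads methylated in the B[a]P library and 60.4% of 9649 reads in the control library. At chr7:13022002-13022276, 62 of 68 sites were members, with 51.3% in the B[a]P library and 50.6% in the control library. At chr1:177610023-177610213, 9763 bp from the placed promoter of the lysosomal peptidase gene Tpp1, all 53 sites were members, with 50.6% in the B[a]P library and 48.5% in the control library. These windows differed by under 5 points. Another of the windows with the most members stood further apart: at chr1:151970272-151970995 all 51 sites were members, with 38.98% in the B[a]P library and 54.3% in the control library, and 50 of the 51 were lower in the B[a]P library.

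Windows were also ranked by their difference between the libraries. Of the 1334 windows with 10 or more members, 112 were 10 points or more higher in the B[a]P library and 48 were 10 points or more lower. Every member was higher in 69 windows and every member lower in 39. The same shares over all windows are not given here, and members chose these windows, so nothing is read from these counts. The highest difference was at chr14:47850000-47850214, where 25 of 47 sites were members and the member reads were 48.4% methylated in the B[a]P library and 9.62% in the control library. The pooled levels of these members were 20.7% to 30.8%. As the control level was under the band, membership here rested on the B[a]P reads, and the other sites of the window are left out of both levels. At chr1:191163906-191163966 all 12 members were higher, with 65.9% in the B[a]P library and 37.4% in the control library, and at chr19:61008117-61008312 all 22 were higher, with 48.7% in the B[a]P library and 22.5% in the control library. The lowest difference was at chr1:13506591-13506737, with 18.5% in the B[a]P library and 59.1% in the control library over 33 members, all lower. This window is the end of a cluster from 13500344 to 13506737 on chromosome 1, in which part of the sites are very deep. The cluster held 275 members, 249 of them lower in the B[a]P library, with a median level of 19.4% in the B[a]P library and 46.3% in the control library. As this B[a]P median was under the band, membership of many of these sites rested on the control reads. The same holds for the window at its end, and sites of the cluster that are not members are left out of these values. The cluster supplied 178 of the 1535 members that were 25 points or more lower, and of the 253 such members with 100 or more reads in both libraries 146 lay elsewhere.

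Among members with 100 or more reads in both libraries, the extremes were sites near 0 in a library. Their membership thus rested on the reads of the other library. Whether the DNA of the libraries differed in sequence at these sites was not tested. At chr10:102851082, 80 of 118 reads were methylated in the B[a]P library (67.8%) and 0 of 167 in the control library, whose Wilson interval ends at 2.25%. Nearby sites on chromosome 4 stood at 60.5% (243862110), 61.4% (243862126) and 59.3% (243862142) in the B[a]P library, against 0, 0 and 0.608% in the control library. The most extreme site in the other direction, chr6:102114003, had 0 of 126 methylated reads in the B[a]P library and 122 of 176 (69.3%) in the control library. The member with the most reads, chr14:46834603, had 31.2% of 21058 reads in the B[a]P library and 47.6% of 25224 in the control library.

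By chromosome, members were 9.34% (chromosome 2) to 16.0% (chromosome 12) of the sites on autosomes and 6.37% (907 of 14233) on the X chromosome, which was also the shallowest, with a median of 51 reads in the B[a]P library and 65 in the control library. Chromosome 1, which holds the cluster described above, had 275 members that were 25 points or more higher and 375 that were lower. Within 1 Mb of the first or last site of a chromosome, 8.57% of sites were members, against 11.4% elsewhere. There, 5.30% of the 1076 members (57) were 25 points or more higher in the B[a]P library and 3.53% (38) lower, against 2.12% and 1.33% elsewhere. The depth near the ends and the shares over all sites there are not given, so nothing is read from this gap. On the X chromosome the window with the most members, chrX:10997141-10997671, had 26.4% methylated reads in the B[a]P library and 37.5% in the control library, with all 39 members lower. The next windows of the X chromosome went the other way: chrX:115405722-115405852 had 66.3% in the B[a]P library and 62.9% in the control library, with 14 of 17 members higher, and chrX:107617561-107617677 had 38.0% in the B[a]P library and 31.4% in the control library, with 13 of 17 higher.

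Cytosines outside CpG were not used by the rule. In hippocampus, as in brain generally, neurons are known to carry some methylation at CHH and CHG sites (H is A, C or T), and unconverted cytosines read as methylated too. CHH cytosines within 50 bp of members were methylated in 0.902% of reads in the B[a]P library and 0.951% in the control library. Around sites of 80% or more the CHH levels were 1.101% in the B[a]P library and 1.19% in the control library, and around sites under 20% they were 0.326% in the B[a]P library and 0.378% in the control library. CHG cytosines near members had 0.798% in the B[a]P library and 0.841% in the control library, again between the other classes. At non-CpG cytosines near members the B[a]P library was thus the lower, while at the members it was the higher.

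The promoters that could be placed held few members. Of 33469 RefSeq promoters, 7675 were placed at a single position, 98.4% of them on the chromosome of the same name, and 5991 genes had 5 or more measured CpG sites in the placed promoter. Of the 141875 CpG sites in placed promoters 0.773% were members, against 13.1% elsewhere, which includes any promoter that was not placed. Placement needs many measured cytosines, so the placed promoters are not a fair sample of gene starts. Where a gene had more than a single placed promoter, that with the most measured sites stood for the gene. The start that gives the RNA of a gene may thus be another. In 40 genes the promoter was intermediate, meaning that 80% or more of its sites were members, and in 28 of these every site was. Another 69 genes were mixed, 58 had 80% or more of the sites at 80% or more, and 5824 had 80% or more of the sites under 20%. In RNA-seq, the 22 genes with an intermediate promoter and an FPKM value had a median of 0.259 FPKM with B[a]P and 0.266 FPKM in the control. The median for the 15 genes with a highly methylated promoter was 0.0170 FPKM with B[a]P and 0.00801 FPKM in the control, and for the 4874 genes with a promoter under 20% it was 6.70 FPKM with B[a]P and 6.30 FPKM in the control. Of the 22 genes, 7 reached 1 FPKM in either library: Usp19, Cdkn1a, Plagl1, Fgd3, Zfp217, Plvap and C1qtnf3. The highest were Usp19, a deubiquitinating enzyme gene, with 19.1 FPKM under B[a]P and 17.9 FPKM in the control, and the cell cycle inhibitor gene Cdkn1a, with 5.04 FPKM under B[a]P and 7.36 FPKM in the control. The Usp19 promoter reads were 51.8% methylated in the B[a]P library and 46.5% in the control library. Those of Cdkn1a were 41.7% methylated in the B[a]P library and 41.8% in the control library.

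Between the libraries, the intermediate promoters differed by -14.2 to 9.39 points (B[a]P minus control). Of the 40 genes, 26 were higher and 14 lower in the B[a]P library, with a median difference of 1.63 points, and 23 lay within 5 points. At 10 points or more, 0 were higher and 6 lower, against 0.0835% higher and 0.117% lower of all 5991 placed promoters. Intermediate levels chose these genes, so nothing is read from this. Among the 6, LOC102556241 had 46.2% in the B[a]P library and 60.3% in the control library over its 5 sites, yet 3 of its 4 members were higher. Dsc3, a cadherin of epithelial desmosomes, had 43.6% of 2060 reads methylated in the B[a]P library and 57.8% of 1894 in the control library, and 12 of its 14 members were lower. Its members ranged over 28.9% to 57.4% in the B[a]P library and 37.0% to 71.2% in the control library, so the ranges overlapped. Piwil1, which binds small RNAs in the male germ line of mice, had 62.0% in the B[a]P library and 72.1% in the control library, with all 10 members lower. The promoter of LOC108352441, another of the 6, holds the same 10 sites. Plvap, which forms the diaphragms of fenestrated capillaries, had 29.7% in the B[a]P library (interval 26.5% to 33.1%) and 40.5% in the control library, with all 10 members lower. Its RNA stood at 0.334 FPKM with B[a]P and 1.92 FPKM in the control, the RNA-seq library with the higher Ttr, Folr1 and Kl, and the part of these cells in either value was not tested. Fgd3, a guanine exchange factor gene, had 70.05% in the B[a]P library and 70.04% in the control library over 16 members.

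Imprinted genes were in a list written from general knowledge, of which 20 had a placed promoter with 5 or more sites. Promoters of 2 were intermediate and of the other 18 under 20%. Plagl1, a zinc finger transcription factor gene, had 45.4% of 335 reads methylated in the B[a]P library (interval 40.1% to 50.7%) and 38.7% of 256 in the control library (interval 32.9% to 44.8%), with all 8 promoter members higher. These intervals overlapped. The 8 sites had 41 to 42 reads each in the B[a]P library and 30 to 33 in the control library. The sums can thus hold the same reads at several sites, which makes the intervals too narrow. Not all members of the region shared that direction. Followed into the gene, 36 of 37 measured sites at positions -22 to 290 bp relative to the start were members, with a median level of 42.9% in the B[a]P library and 39.4% in the control library. Of the 36, 22 were higher and 14 lower in the B[a]P library. A lone site had 0 in both. Peg10, derived from a retrotransposon and paternally expressed, had 49.2% of 543 reads in the B[a]P library and 62.0% of 192 in the control library, with all 6 members lower, between 46.7% and 52.2% in the B[a]P library and between 59.4% and 64.5% in the control library. These reads are sums over the 6 sites, which had 90 to 92 reads each in the B[a]P library and 31 to 33 in the control library.

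Gnas, which encodes the stimulatory G protein alpha subunit and lies among imprinted alternative promoters, joined both states within a short distance. At positions -1878 to -734 bp relative to its placed start, all 67 measured sites were members, with a median of 44.2% in the B[a]P library and 44.7% in the control library. At positions -355 to 1239 bp none of 99 sites was a member, and the median was 0 in both libraries. The window at chr3:178472026-178472728, which holds 53 of the 67 members, had 44.4% in the B[a]P library and 40.9% in the control library.

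**Figure D4:**
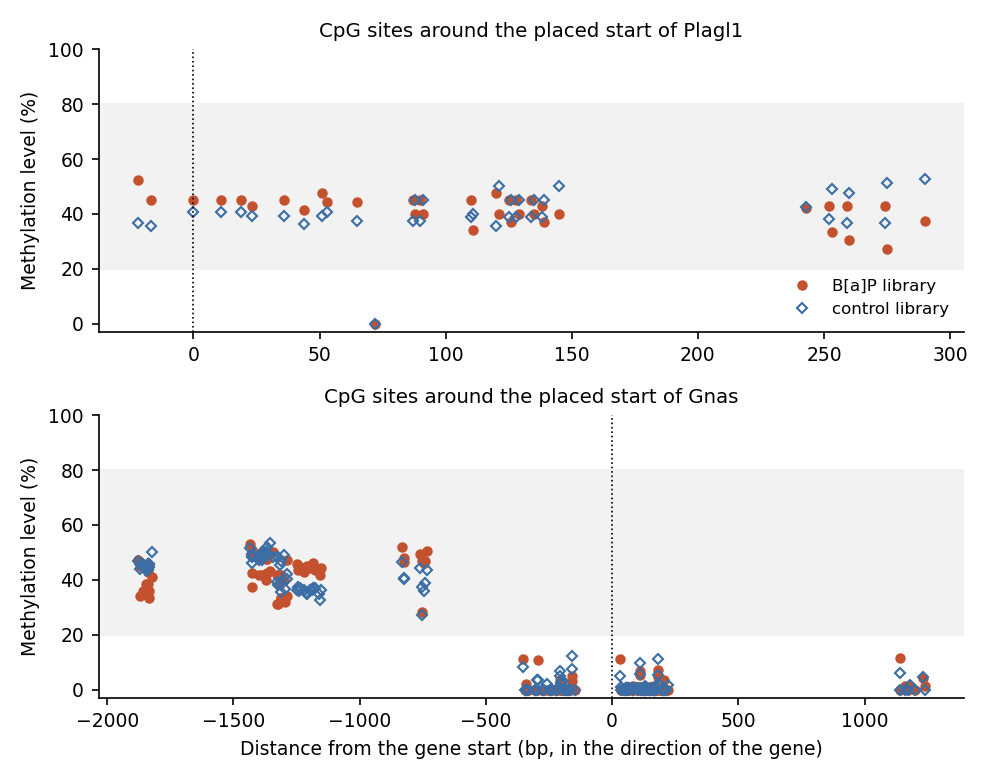
Methylation level (%) of each measured CpG site in the B[a]P library (filled circles) and the control library (open diamonds), by distance in bp from the placed start of Plagl1 (top) and Gnas (bottom), with the 20% to 80% band in grey and the start as a dotted line. At Plagl1 all sites but 1 lie in the band, and at Gnas the sites up to -734 bp lie in it and those from -355 bp on lie near 0.

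Among germline genes, 6 of the list had a placed promoter. Apart from Piwil1, Nobox, an oocyte homeobox gene, and Tdrd1, a tudor domain gene, were mixed, the helicase gene Ddx4 was at 92.4% in the B[a]P library and 92.2% in the control library, and 2 were under 20%. All 5 placed brain cell type genes (Gad1, Pvalb, Cnp, Slc1a2 and Neurod2) had promoters under 20% without a member.

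The gamma protocadherin genes held a dense stretch of members. Gamma protocadherins are cell adhesion molecules of neurons, and in mice each cell is known to use a subset of variable first exons with promoters of their own. In the RefSeq gene order, 16 of the 19 genes between Taf7 and Diaph1 on chromosome 18 are named Pcdhg. Between the placed promoters of Taf7 and Diaph1, 300 of 483 measured sites (62.1%) were members, 147 were under 20% and 36 at 80% or more. The median difference of these members was 1.60 points, with 2 that were 25 points or more higher in the B[a]P library and 22 that were lower. Over the whole set of members 2.15% were higher by this rule and 1.35% lower, and over all sites 0.286% higher and 0.187% lower. As the rule that chose the members used this contrast, nothing is read from these counts. Of 18 windows with 5 or more members, 11 had the higher level in the B[a]P library and 7 the lower. Adjacent windows stood apart: chr18:30502836-30502997 had 37.7% methylated reads in the B[a]P library and 70.7% in the control library, and chr18:30503005-30503087 had 30.5% in the B[a]P library and 60.6% in the control library, with all 27 members of both windows lower. They held 18 of the 22 lower calls. The remaining lower calls were at sites with 0 to 0.595% in the B[a]P library. In the other 16 windows the difference ran from -5.36 to 11.1 points. Over all its sites, the placed promoter of Pcdhga8 had 50.4% in the B[a]P library and 37.9% in the control library, with 9 members among 13 sites and all 9 higher, between 28.2% and 83.7% in the B[a]P library and between 17.2% and 73.9% in the control library. These members had 39 to 213 reads each in the B[a]P library and 92 to 157 in the control library. The 2 summed levels thus weight the sites differently, and their gap is not that of the single sites. The promoter of Pcdhgc3 had 0.705% in the B[a]P library and 0.971% in the control library and no member among its 38 sites. Gamma protocadherin transcripts share their 3' exons, so the FPKM of single genes is uncertain and is not given.

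**Figure D5:**
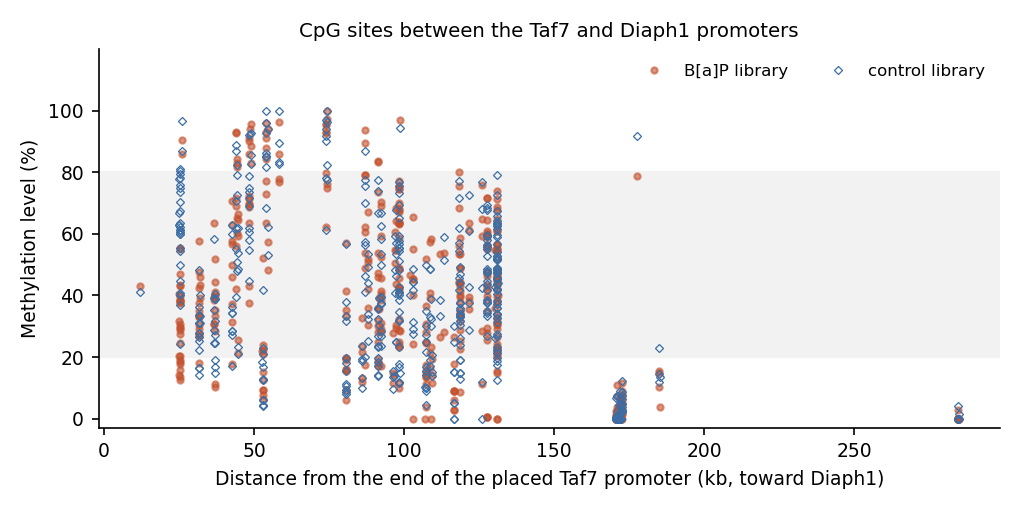
Methylation level (%) of each measured CpG site between the placed promoters of Taf7 and Diaph1, in the B[a]P library (filled circles) and the control library (open diamonds), by distance in kb from the Taf7 promoter, with the 20% to 80% band in grey. Levels spread through the band over the first part of the stretch, all 27 members of the 2 adjacent windows near its start have the lower level in the B[a]P library, and sites fall near 0 at the Pcdhgc3 promoter and at Diaph1.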

How the data were processed

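RRBS tables give, per the file headers, the counts of methylated and of unmethylated reads at every cytosine plus a methylation level in percent, as deposited by the authors. Every cytosine has 10 or more reads; the caller, aligner and filters are not given in the sources used here, and unremoved duplicates or filled-in fragment ends could shift a level. The tool bcl2fastq and the builds rn6 and rn5 appear in the submitters' processing notes without roles; positions on chromosome 1 run to 290069402, past its end in rn6, and are given as rn5 exactly as the start column prints them, with its base (0 or 1) not known. The mRNA tables deposited by the authors hold FPKM values, a unit inferred from the values, with a depth that is not known.

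The 6 libraries were grouped by title, with 1 per group and assay; miRNA and lncRNA tables were not used here. Cytosines of both RRBS libraries were joined by position, and 422 whose context differed were left out. A window's level sums the reads of its members, and a promoter's level those of all its measured sites, so a read that covers several sites counts at each. Windows and sites were named by rank: most members, largest difference, most reads. RefSeq promoters (GRCr8) were placed where at least 30 cytosine contexts matched at 95% or more, at a single position, without conversion of coordinates, and the selection and placement were tested on simulated data. Promoter classes and gene lists were added after the data were seen, and the members and lists were chosen with earlier results of these data known. Alternatives changed the read minimum, a coverage cap, the band, the averaging, the difference limit, the size rule, the window and the promoter rules. Python 3.11.15, numpy 2.4.6 and pandas 2.3.3 were used. No test was made, since 1 library per group allows none.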

Additional observations from a re-analysis of the deposited data

How the results depend on the processing

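No paired analysis was possible because each group has a single library. Under the alternatives, 58 values stayed within counting error or 1.5 times the reported value and 49 moved; in none did the median difference of the members change sign. With a minimum of 10 reads, members were 12.7% of sites, 79.9% had both libraries in the band, 5974 were 25 points or more higher in the B[a]P library and 3968 lower, the variance ratio was 1.40, the strand partner was intermediate for 82.9% and the nearest CpG for 72.9%, the share on the X chromosome was 7.41%, and the pooled CHH and CHG levels near members were 0.940% and 0.832% (0.927% and 0.821% as reported). With a minimum of 50 reads there were 51972 members (9.35%), 86.1% had both libraries in the band, 490 were higher and 527 lower (490 and 380 without the chromosome 1 cluster, chosen after seeing the data), the median difference was 2.05 points, the variance ratio 2.11, the strand partner was intermediate for 87.2% and the nearest CpG for 74.96%, CHH and CHG were 0.886% and 0.783%, dense windows numbered 305 and intermediate promoters 20. Without sites above 842 pooled reads, the variance ratio was 1.56, CHH 0.918% and CHG 0.810%. A band of 30% to under 70% left 67821 members (6.77%), 76.3% with both libraries in it, a median difference of 2.44 points, a variance ratio of 1.59, an intermediate strand partner for 78.7% and nearest CpG for 64.2%, a share of 3.49% on the X chromosome, 237 dense windows and 17 intermediate promoters. With the mean of the library levels in place of the pooled level, 82.6% had both libraries in the band, the variance ratio was 1.61 and the nearest CpG was intermediate for 74.0%. With no limit on the difference, the variance ratio was 1.73. A size rule of 15 points called 11353 higher and 6054 lower. Other alternatives were chosen after seeing the data: without the chromosome 1 cluster the variance ratio was 1.55 and CHH 0.935%, and intermediate promoters numbered 18 with 10 or more sites, 78 at a share of 50% and 22 with 50 or more cytosines matched. Counts followed the settings by construction, as these change which sites enter.

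Depth limits single sites: at 20 reads a level of 50% spans 29.9% to 70.1%, and single sites are named only with 100 or more reads in both libraries. With 1 library per group, the treatment cannot be told apart from the animal or the preparation. Promoters were placed for 6893 of 27457 RefSeq genes, so genes outside these are not described, and windows without a gene name are not thereby intergenic.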
